A study of Caenorhabditis elegans with 4 samples.

Results

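The broad regions of NFYA-1 occupancy are the 261 peaks, of 4256 in the combined peak list, that measured 1500 bp or more from start to end. They were chosen by that width alone, so their width is a description and not a finding. The data come from chromatin immunoprecipitation followed by sequencing (ChIP-seq) in Caenorhabditis elegans, with 2 ChIP samples (replicates 1 and 2) and 2 input samples of sheared chromatin that was not precipitated. Every sample was made from hermaphrodites at the L3 larval stage, of strain OP404, grown at 20 °C. All of them carry the unc-119(ed3) III mutation and the transgene wgIs404, which holds nfya-1::TY1-GFP-3xFLA together with the unc-119(+) rescue gene. The strain is 1 line made by bombardment and outcrossed 3 times, and the tagged protein is carried on the transgene. Whole animals were used, so cell types are not separated, and an untagged strain was not analysed here. The chromatin was fixed with 2% formaldehyde and precipitated with an antibody against GFP. Separate cultures are not stated for the replicates, whose spread may therefore be technical.

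NFYA-1 is a worm form of NF-YA, the subunit of the trimeric factor NF-Y that contacts the CCAAT box. The other subunits, NF-YB and NF-YC, pair through histone-like folds and also contact the DNA. In many animals NF-Y sits at promoters with a CCAAT box, among them those of genes expressed in most cells. In worms NF-Y is also known for its action on the Hox gene egl-5. The sequences under the broad regions and the genes near them were not analysed here, because no genome of the lists' build (WormBase WS180) was used, and regions are therefore named by position on that build.

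The authors' lists give for each peak its position and a q value, with no summit, height or read count, so the depth behind a region is unknown. Strength below means −log10 of the authors' q value, and rank 1 is the smallest q value in a list. Within each list neighbouring peaks were at least 200 bp apart. Shares carry exact 95% binomial intervals (Clopper-Pearson) and medians carry exact 95% order-statistic intervals. Both treat regions as independent and cover counting error only. There are 2 ChIP samples, and the combined list is taken, from its name, to draw on both. No test over samples was therefore possible, and no difference below is called significant.

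By the rule that chose them, broad regions hold a larger share of the covered bases than of the peaks. They made up 6.13% of the combined list (5.43 to 6.90%) and 25.5% of its covered bases, 0.715 of 2.80 Mb. Their median width was 2269 bp (interquartile range 1774 to 3316 bp), and 76 reached 3000 bp and 14 reached 5000 bp. Each replicate list on its own held a like share, with 164 of 3037 peaks (5.40%) in replicate 1 and 110 of 2188 (5.03%) in replicate 2. Nearly all of those fell in a broad combined region, 161 of the 164 and 108 of the 110.

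The threshold divides a continuous distribution. The 3 members just inside it measured 1500, 1504 and 1507 bp and had combined ranks of 53, 3595 and 356. The 3 peaks just outside measured 1495, 1490 and 1485 bp and ranked 2852, 3014 and 694. Between 1400 and 1499 bp there were 36 peaks, with a median strength of 14.8, and between 1500 and 1599 bp there were 28, with 19.6.

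The widest region of all lay on chromosome II from 10541812 to 10552962 and spanned 11151 bp. X held the next, from 6735431 to 6745995 (10565 bp), and chromosome I the one after it, from 5372066 to 5381667 (9602 bp). The fourth lay on II from 14597815 to 14605704 (7890 bp). Chromosome V followed with 6222286 to 6230067 (7782 bp) and 5838646 to 5846318 (7673 bp). On chromosomes III and IV the widest regions were shorter, at 4705 bp (345916 to 350620) and 5050 bp (17276825 to 17281874). These regions differed widely in strength. The region on I ranked 6 in the combined list and that on V from 6222286 ranked 12, whereas the 7890 bp region ranked 330 and the 7673 bp region 426.

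**Figure D1:**
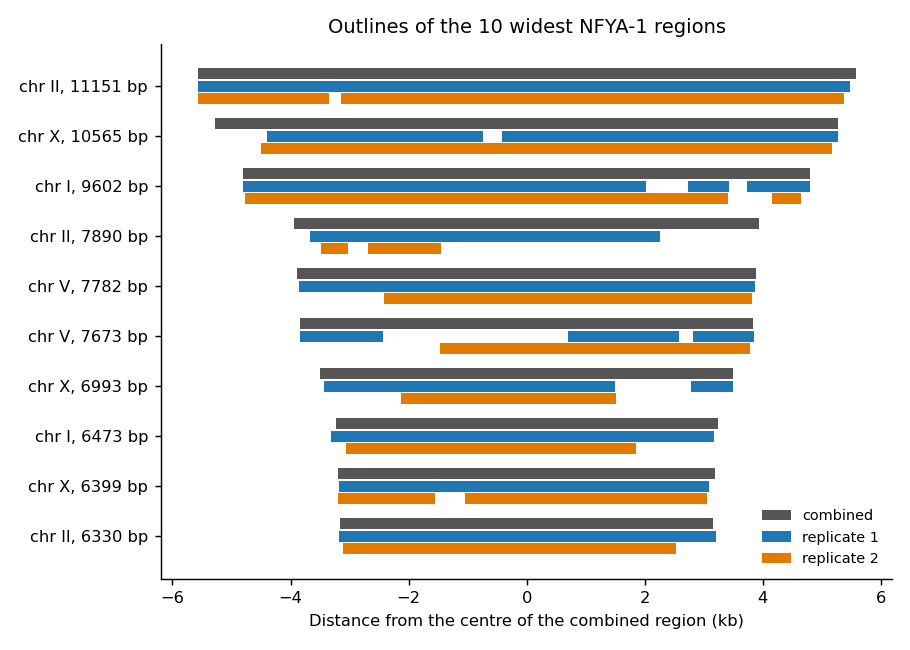
Outlines of the 10 widest combined regions, drawn as distance from the centre of each region in kb, with the combined call in grey, replicate 1 peaks in blue and replicate 2 peaks in orange. Of these regions, 7 were divided into more than 1 peak in at least 1 replicate, and on the 7890 bp region of chromosome II replicate 2 covered 21.4% of the combined outline.

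Every chromosome held between 33 and 51 broad regions. Chromosome V had 51, IV had 46, III and X had 45 each, II had 41 and I had 33. Set against the number of peaks on each chromosome, the broad share was 8.04% on V (6.05 to 10.4%) and 7.89% on X (5.82 to 10.4%). It was 6.74% on II (4.88 to 9.04%), 5.83% on IV (4.30 to 7.70%), 4.89% on III (3.59 to 6.49%) and 4.49% on I (3.11 to 6.25%). The intervals of all 6 chromosomes overlap. Per Mb the order was different, since III, which is dense in peaks, had the most broad regions at 3.27 per Mb (2.38 to 4.37) and I the fewest at 2.19 (1.51 to 3.08).

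Broad regions made up a larger share of peaks on X than on the autosomes in every list, with an interval that includes 1 in the combined one. The broad share on X was 1.35 times that on the autosomes in the combined list (0.989 to 1.83). It was 1.57 times in replicate 1 (1.06 to 2.32, from 7.95% against 5.07% of peaks) and 2.20 times in replicate 2 (1.43 to 3.40, from 9.76% against 4.43%). In replicate 2 that rests on 24 of 246 X peaks. In the stronger 50% of the combined list the ratio was 1.66 (1.19 to 2.32), and with thresholds of 1000 and 2000 bp it was 1.49 (1.21 to 1.82) and 1.54 (1.04 to 2.27). This contrast was not particular to widths of 1500 bp or more. X held 9.80% of all peaks under 500 bp, 18.2% from 500 to under 1000 bp and 20.2% from 1000 to 1499 bp. Its share was 14.3% from 1500 to under 2000 bp, 21.25% to under 3000 bp, 14.5% to under 5000 bp and 28.6% (4 of 14) from 5000 bp. Per Mb, X had 2.55 broad regions (1.86 to 3.41) and the autosomes 2.62 (2.28 to 2.99). Broad regions on X and autosomes had overlapping intervals of width, with medians of 2515 bp (2065 to 2714 bp) and 2158 bp (2016 to 2461 bp), and of strength, with medians of 21.2 (16.5 to 38.6) and 25.6 (21.8 to 27.8).

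**Figure D2:**
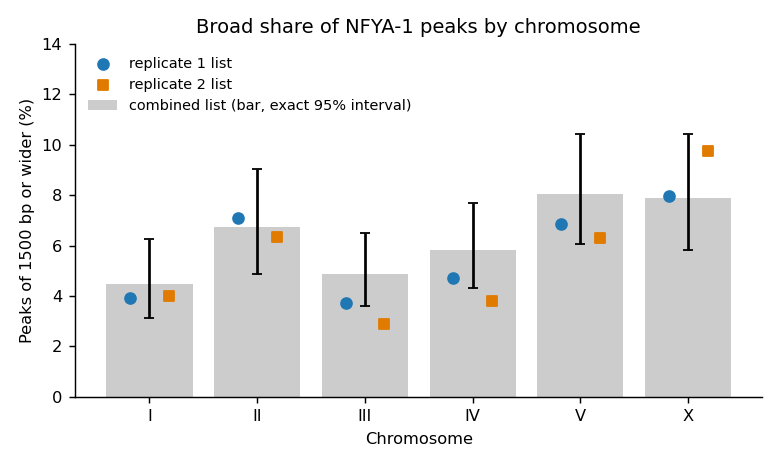
Share of peaks that measured 1500 bp or more on each chromosome, in percent. Grey bars are the combined list with exact 95% binomial intervals, circles the replicate 1 list and squares the replicate 2 list, and the squares reach from 2.88% on III to 9.76% on X.

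Along the chromosomes, broad regions lay mostly in the central 50%, taken between 25% and 75% of the largest peak coordinate. On the autosomes the centre held 137 of 216 (63.4%, 56.6 to 69.9%), against 57.4% of the narrower autosomal peaks (55.7 to 59.0%), and these intervals overlap. On X it held 26 of 45 (57.8%, 42.2 to 72.3%), against 46.1% of narrower peaks (41.8 to 50.5%). Chromosome V had 34 of its 51 broad regions in the centre, II had 29 of 41, III had 29 of 45, I had 21 of 33 and IV had 24 of 46. The central share of broad regions exceeded that of narrower peaks on every autosome except IV. There it was 52.2% (36.9 to 67.1%), against 57.5% of narrower peaks (53.8 to 61.1%). For chromosome I the shares were 63.6% (45.1 to 79.6%) and 59.0% (55.2 to 62.6%). The intervals of the 2 shares overlap on each autosome.

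Over the autosomes the arms held like shares, 37 of 716 peaks on the left (5.17%, 3.66 to 7.05%) and 42 of 842 on the right (4.99%, 3.62 to 6.68%). The left arm of II held 1 broad region among 90 peaks (1.11%, 0.0281 to 6.04%), whereas its right arm held 11 among 164 (6.71%, 3.40 to 11.7%) and its centre 29 among 354 (8.19%, 5.55 to 11.6%). That region, from 22959 to 24946, was followed by 3.90 Mb with 95 combined peaks and no broad one, up to 3929266, where the region of combined rank 4 began. The right arm of V held 5 among 100 peaks and its left arm 12 among 157 (7.64%, 4.01 to 12.97%). The intervals of the arms overlap on both chromosomes. Chromosome IV was the most even, with 12 on the left arm, 24 in the centre and 10 on the right arm. At the scale of 1 Mb bins, II from 8000001 to 9000000 held 8 broad regions among 45 peaks, and the next bins held 7 (II from 10000001 and X from 4000001).

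The question of how each broad region appeared in the single replicates was answered by counting the replicate peaks that overlapped it by at least 1 bp. Replicate 1 held 1 peak in 201 of the 261 regions, 2 or 3 peaks in 25 (9.58%, 6.30 to 13.8%) and none in 35 (13.4%, 9.52 to 18.2%). Replicate 2 held 1 peak in 177, 2 peaks in 24 (9.20%, 5.98 to 13.4%) and none in 60 (23.0%, 18.03 to 28.6%). The replicate 2 list is the shorter one and depth is unknown, so the part of list length in its larger number of empty regions was not tested.

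Taken over both replicates, 157 regions (60.2%, 53.9 to 66.1%) were a single peak in each, and 38 (14.6%, 10.5 to 19.4%) were found in both but divided in at least 1. A further 31 (11.9%, 8.21 to 16.4%) appeared in replicate 1 alone, 6 (2.30%) in replicate 2 alone and 29 (11.1%, 7.57 to 15.6%) in neither. So 195 of 261 broad regions (74.7%, 69.0 to 79.9%) overlapped a peak of both replicates, against 48.2% of all combined peaks, and 11.1% overlapped neither, against 27.6% of all combined peaks. Among the narrower peaks those shares were 46.5% (44.9 to 48.0%) and 28.7% (27.3 to 30.1%). The contrast did not begin at the threshold, since peaks of 1000 to 1499 bp were in both in 68.7% of cases (62.5 to 74.3%) and in neither in 13.9%. From 1500 to under 2000 bp these shares were 64.8% (54.8 to 73.8%) and 18.1%. The combined list is taken, from its name, to draw on the same 2 ChIP samples, so this is no independent check of the regions.

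Part of that contrast goes with strength, which differs between broad and narrower peaks. Among the 852 strongest combined peaks, 20% of the list, all 139 broad regions and all 713 narrower ones were in both replicates. In the next 20% the order was the other way round, with 47 of 59 broad regions (79.7%, 67.2 to 89.0%) and 731 of 792 narrower peaks (92.3%, 90.2 to 94.1%) in both. In the middle 20% the counts were 7 of 29 (24.1%, 10.3 to 43.5%) and 350 of 822 (42.6%, 39.2 to 46.0%). Regions found in neither replicate numbered 5 of 29 (17.2%, 5.85 to 35.8%) there, against 58 of 822 (7.06%, 5.40 to 9.03%). Below that, 0 of 17 broad regions in the fourth group were in both. By the exact interval this allows a share of up to 19.5%. Narrower peaks of that group were in both in 60 of 834 cases (7.19%, 5.53 to 9.16%). In the weakest group 2 of 17 broad regions and 3 of 834 narrower peaks were in both. Outside that group, then, broad regions were not found in both replicates more often than narrower peaks of the same 20% of the list.

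**Figure D3:**
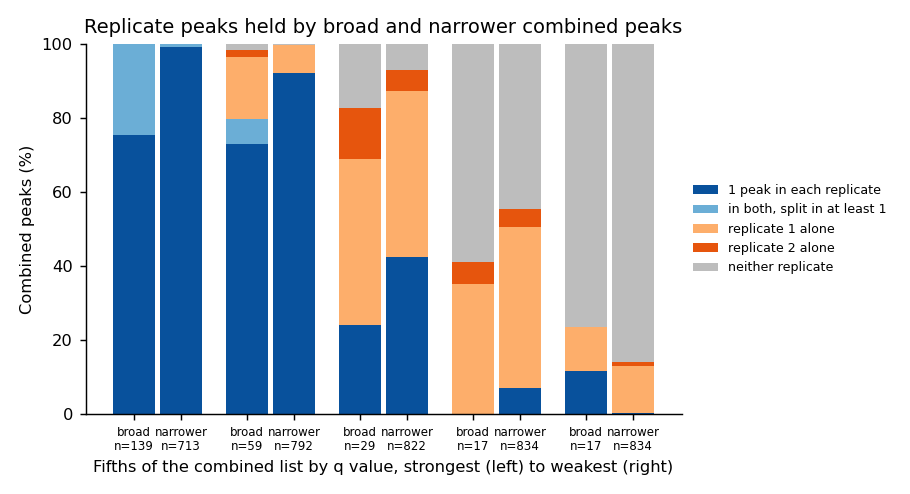
Share of combined peaks, in percent, by the replicate peaks they hold, for broad and narrower peaks in each 20% of the combined list from the strongest to the weakest. Light blue, which marks peaks found in both replicates but divided in at least 1, makes up 24.5% of broad regions and 0.842% of narrower peaks in the strongest 20%.

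Division into several replicate peaks was almost restricted to wide regions. Counting every region with 2 or more peaks in either replicate, 39 of 261 broad regions (14.9%, 10.8 to 19.9%) were divided, against 1.06% of all combined peaks and 6 of 3995 narrower ones (0.150%). Division is tied to the width that chose the regions, and the part of width in it was not tested. The share rose with width, from 6 of 105 from 1500 to under 2000 bp (5.71%, 2.13 to 12.0%) and 9 of 80 from 2000 to under 3000 bp (11.2%, 5.28 to 20.3%) to 15 of 62 from 3000 to under 5000 bp (24.2%, 14.2 to 36.7%) and 9 of 14 at 5000 bp or more (64.3%, 35.1 to 87.2%).

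The replicates did not always divide the same regions. Division in both was seen in 10, in replicate 1 alone with a single peak in replicate 2 in 14, and in replicate 2 alone with a single peak in replicate 1 in another 14. The remaining region, on II from 11973348 to 11975011, held 2 weak peaks in replicate 1 and none in replicate 2. Most of the breaks were short. The 51 gaps between pieces had a median of 301 bp (interquartile range 250 to 439.5 bp), and 39 of them were 500 bp or shorter. The longest, 3122 bp, lay in the 7673 bp region of chromosome V, where replicate 1 had 3 peaks of 1405, 1894 and 1032 bp and replicate 2 had 1 peak of 5262 bp that bridged most of that gap.

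The other region with 3 peaks in replicate 1 was the 9602 bp region of chromosome I. Its replicate 1 peaks measured 6830, 701 and 1074 bp, and replicate 2 held peaks of 8183 and 494 bp. On III from 11980309 to 11981890, a region of 1582 bp, the breaks of both replicates overlapped, with pieces of 938 and 515 bp in replicate 1 and 663 and 497 bp in replicate 2. The region on II from 9282578 to 9286099 also had overlapping breaks, into 589 and 2340 bp in replicate 1 and 501 and 2368 bp in replicate 2. In the widest region of all, replicate 1 called a single peak of 11051 bp, and replicate 2 broke it only once, over 208 bp, close to the smallest gap in that list.

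Agreement of the outlines was measured as the Jaccard index, the bases covered by both replicates' peaks divided by the bases covered by either, where 1 is an identical outline. For the 195 broad regions found in both replicates the median was 0.79 (0.74 to 0.84). It was 0.88 (0.877 to 0.885) for 1857 narrower peaks. Among the narrower peaks, the widest, from 1000 to 1499 bp, had a median of 0.83, within the interval of the broad regions. The medians of broad regions did not fall steadily with width. They were 0.78 from 1500 to under 2000 bp, 0.84 to under 3000 bp, 0.78 to under 5000 bp and 0.81 from 5000 bp. Broad regions also had a longer lower tail, since 34 of 195 (17.4%) were under 0.5, against 50 of 1857 (2.69%). The gap was also present within groups of the list by strength, although strength was not matched inside a group. In the strongest 20% of the list the median indices were 0.83 (0.76 to 0.87) and 0.90 (0.89 to 0.90). The median strengths there were 47.1 for broad regions and 36.6 for narrower peaks. In the next 20% the median indices were 0.71 (0.53 to 0.84) and 0.87 (0.86 to 0.88), at median strengths of 17.1 and 16.4.

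Where both replicates held a single peak, their edges could be compared directly. In 157 such broad regions the starts differed by a median of 90 bp and the ends by 95 bp, against 23 and 25 bp for 1851 narrower peaks. Both edges lay within 100 bp of each other in 46 broad regions (29.3%), and in 1500 narrower peaks (81.0%). Neither the offsets nor the limit of 100 bp was scaled to width. Median replicate 1 width was 1919 bp in these broad regions and 444 bp in these narrower peaks. The Jaccard index, which is relative to width, had medians of 0.83 and 0.88 in the same order. For 73 broad regions (46.5%) 1 edge was kept within 100 bp and the other was not, and in 38 (24.2%) neither was. The replicate 1 peak was the wider in 113 of 157 (72.0%), with a median width of 1919 bp against 1550 bp in replicate 2. The replicate 2 peak lay wholly inside the replicate 1 peak in 69 regions, and the reverse held in 15. As a description across regions that share their libraries, Spearman's rho between the 2 widths was 0.65 (n = 157), and for narrower peaks it was 0.85 (n = 1851).

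Many regions reached the threshold in some lists and not in others. Of the 157, 76 reached 1500 bp in both replicates, 34 in replicate 1 alone and 7 in replicate 2 alone. The other 40 were under 1500 bp in each replicate and reached it only in the combined call. The combined outline was covered to a median of 86.7% by replicate 1 peaks, where it had any, and to 71.1% by replicate 2 peaks. Together they covered 92.4% of the regions found in both.

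**Figure D4:**
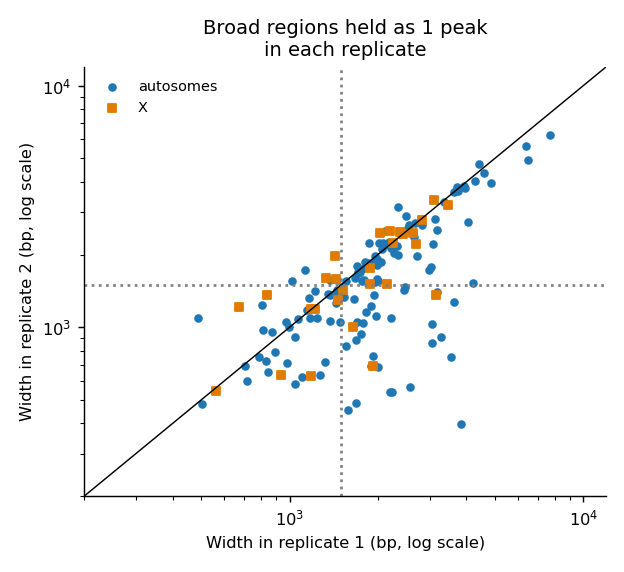
Width of the replicate 1 peak against that of the replicate 2 peak, in bp on log axes, for the 157 broad regions held as 1 peak in each replicate (autosomes in blue, X in orange). The solid line marks equal widths and the dotted lines 1500 bp, and 113 points lie below the line of equal widths.

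Individual regions show both ends of this range. The closest outlines belonged to a region at the right end of I (15063992 to 15067642), where the replicate peaks measured 3639 and 3632 bp and differed by 1 bp at the start and 8 bp at the end (Jaccard index 0.998). The top-ranked region, on II from 5659961 to 5664007, had peaks of 3760 and 3675 bp and an index of 0.98. At the other end, V from 4822984 to 4827361 held a replicate 1 peak of 3822 bp and a replicate 2 peak of 396 bp that shared its right edge to within 2 bp, giving 0.10. On II from 8785789 to 8790280 the peaks were 3048 and 857 bp (0.18). On III from 7372452 to 7376828 they were 3544 and 754 bp (0.20), again with 1 shared edge, 35 bp apart. In the order given, their combined ranks were 1063, 845 and 1293, the second of them within the strongest 20% of the list.

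A different kind of mismatch was seen on IV from 4747554 to 4749217 (rank 1396), where replicate 1 covered the right part with 804 bp and replicate 2 the left part with 1235 bp (index 0.22). On II from 11545163 to 11547797 (rank 613) the replicate 2 peak of 568 bp began within 35 bp of the replicate 1 start and ended 2033 bp before its end (index 0.20).

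Broad regions had smaller q values than narrower peaks. The q value and the width come from the same call, so strength is given as a description. The median strength was 25.2 (21.3 to 27.6) for broad regions and 9.11 (8.78 to 9.44) for narrower peaks. Per kb of width the order was the reverse, with 9.94 for broad regions and 20.8 for narrower peaks. The value per kb depends on the width that chose the regions, and neither value is a height of signal. Next to the threshold there was little contrast, with medians of 17.6 from 1000 to 1499 bp and 17.4 for the 105 regions from 1500 to under 2000 bp. Of the broad regions, 139 of 261 (53.3%) lay in the strongest 20% of the combined list, and 20 of the 25 smallest q values and 30 of the 50 smallest were broad. The tail was long, however, since 17 (6.51%) lay in the weakest 20%. Within the broad regions Spearman's rho between width and strength was 0.38 (n = 261). Strength was 39.3 (29.97 to 57.8) at 3000 bp or more and 20.6 (16.8 to 24.5) below it.

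In the 195 regions found in both replicates, the best replicate 1 peak had a median strength of 21.4 and the best replicate 2 peak 13.4. Replicate 1 was the stronger in 165 of them (84.6%, 78.8 to 89.4%), much as among narrower peaks (81.8%, 80.0 to 83.5%). Spearman's rho between the replicates was 0.88 (n = 195). The strongest broad regions also ranked high in each replicate. The region on II from 5659961 ranked 1 in every list. That on IV from 8430698 to 8433483 ranked 2 in each, with replicate widths of 3073 and 2214 bp. On X from 16929155 to 16932120 (combined rank 3) the ranks were 7 and 15, and the outlines agreed to 0.96. IV from 14032445 to 14034999 (rank 5) held ranks 15 and 10.

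Ranks of very wide regions are given by list. The lists differ in length, and a replicate rank is that of the best piece of a region, so these ranks show no change in standing. The region on II from 10541812 ranked 14 in the combined list, 28 in replicate 1 and 220 in replicate 2 by its best peak. On II from 14597815 the ranks were 330, 283 and 801. On V from 5838646 they were 426, 1059 and 846. On V from 6222286 they were 12, 26 and 28.

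In 9 of the 195 regions (4.62%), against 19 of 1857 narrower peaks (1.02%), the combined q value was weaker than that of the better replicate. The largest gap on the log scale was at the right end of I, with a combined q value of 1.66e-116 (rank 35) and values of 1.21e-171 and 1.40e-166 in the replicates (rank 3 in each). Next came V from 14365636 to 14367360, with a combined q value of 1.39e-52 and a replicate 1 value of 2.57e-102 (rank 21). That replicate 1 peak, from 14364321 to 14367502, reaches beyond the combined region on both sides. Joined over gaps of up to 1000 bp, 3 combined peaks lie from 14364331 to 14369845, and the best of their ranks was 33. The first of them begins inside that replicate 1 peak, whose q value therefore cannot be assigned to the broad region alone. At the left end of II, from 22959 to 24946, the combined rank was 4160, and replicate 2 had a q value of 6.07e-09 (rank 1077) and replicate 1 of 4.39e-05 (rank 2663).

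The regions without a peak in some replicate were weaker. Median strength was 10.5 for those in replicate 1 alone, 10.4 for those in replicate 2 alone and 5.24 for those in neither. Their median widths were 1965, 2542 and 1821 bp in the same order. The strongest region missing from replicate 2 lay on V from 7434948 to 7438000 (q = 4.07e-18, rank 1201), and its single replicate 1 peak of 2989 bp covered 97.9% of it. On II from 10553232 to 10557642, 4411 bp wide, replicate 1 had a peak of 4608 bp and replicate 2 had none. The strongest region missing from replicate 1 was on X from 12876589 to 12879053 (q = 3.37e-13, rank 1662), with a replicate 2 peak of 1625 bp. The strongest in neither lay on I from 2585161 to 2586911 (q = 5.46e-13, rank 1687). The widest in neither, on III from 62434 to 66460, measured 4027 bp and ranked 2935.

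Broad regions had near neighbours more often than narrower peaks. The gap from edge to edge to the nearest combined peak had a median of 1960 bp (1419 to 2633 bp) for broad regions and 4862 bp (4596 to 5189 bp) for narrower peaks. A neighbour within 2 kb was present for 134 of 261 broad regions (51.3%, 45.1 to 57.6%), against 29.4% of all combined peaks and 27.9% of narrower ones (26.5 to 29.4%). On both sides a neighbour within 2 kb was present for 26 (9.96%, 6.61 to 14.3%), against 132 of 3995 (3.30%, 2.77 to 3.91%). Isolation by more than 20 kb had overlapping intervals, with 31 broad regions (11.9%, 8.21 to 16.4%) and 580 narrower peaks (14.5%, 13.4 to 15.6%). The most isolated broad region lay on V from 8935721 to 8939980, 133 kb from the nearest peak.

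The broad share was the higher on all 6 chromosomes and in each 20% of the list. The share of broad regions with a neighbour within 2 kb ran from 43.1% on V to 66.7% on I, and that of narrower peaks from 22.1% on X to 35.7% on III. On IV the interval of the broad share (30.9 to 60.99%) includes the narrower share of 32.03%. From the strongest to the weakest 20% of the list, the shares of broad regions were 55.4%, 37.3%, 65.5%, 58.8% and 35.3%. Those of narrower peaks were 33.2%, 27.1%, 25.8%, 26.4% and 27.8%. In the second and last of these groups the intervals of broad regions (25.04 to 50.9% and 14.2 to 61.7%) include the narrower share.

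The contrast did not begin at 1500 bp and depended on where distance was measured. Peaks of 1000 to 1499 bp had a neighbour within 2 kb in 130 of 252 cases (51.6%, 45.2 to 57.9%), so that the share of broad regions was 0.995 times theirs (0.841 to 1.18). The share was 22.03% under 500 bp and 34.6% from 500 to under 1000 bp. When distance was taken between midpoints in place of edges, 12.3% of broad regions had a neighbour within 2 kb. That was 0.601 times the share of narrower peaks (0.432 to 0.836). Part of the width of a broad region then counts as distance, and its part in the lower share was not tested.

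**Figure D5:**
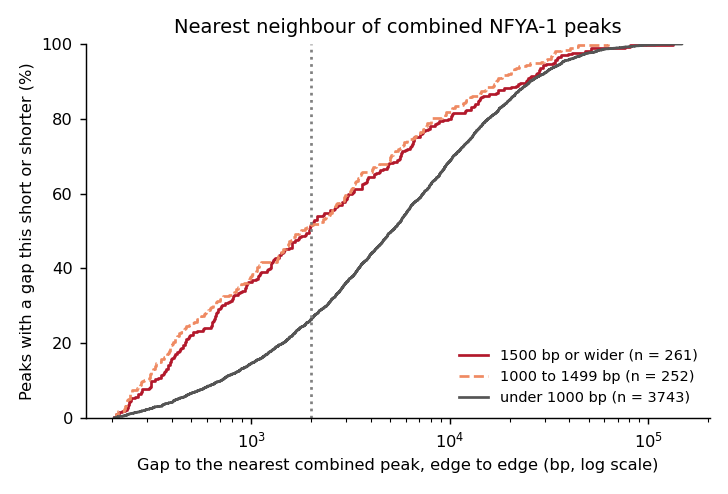
Cumulative share of combined peaks, in percent, by the gap in bp (log axis) from edge to edge to the nearest combined peak, for peaks of 1500 bp or wider, of 1000 to 1499 bp and under 1000 bp. At the dotted line at 2000 bp the curve of the broad regions is at 51.3% and that of the 1000 to 1499 bp peaks at 51.6%.

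Most nearest neighbours of broad regions were not broad, but they were broad more often than those of narrower peaks. The nearest peak was another broad region in 48 of 261 cases (18.4%, 13.9 to 23.6%), against 7.05% for all combined peaks. For narrower peaks it was broad in 252 of 3995 (6.31%, 5.57 to 7.11%). Within 2 kb the nearest neighbour of a broad region had a median width of 981 bp and a median strength of 12.1, below the 26.0 of the broad regions beside it, and the broad region was the stronger of the pair in 94 of 134 (70.1%). The 118 narrower peaks within 2 kb of a broad region had a median width of 725.5 bp, against 432 bp for the other 3877. They were found in both replicates in 60 cases (50.8%, 41.5 to 60.2%), against 46.4% (44.8 to 47.9%).

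Consecutive broad regions were usually far apart, with a median gap of 227 kb, but 21 of 255 such gaps were 2 kb or shorter. The shortest, 269 bp, separated the widest region on II from the 4411 bp region to its right, which was followed after 486 bp by another broad region from 10558129 to 10560045 (1917 bp). Joined over gaps of up to 1000 bp they form a stretch of 18.2 kb with 3 broad regions. Replicate 1 held a peak in each of the 3, and replicate 2 in the first and the last only. A stretch of the same kind, 13.0 kb long, lay on X from 11470272 to 11483297. Its first region (6993 bp, rank 67) was found in both replicates, and those after it, of 2714 and 2303 bp, ranked 3724 and 3065 and were found in neither. Another pair on II, from 8479322 to 8482201 and from 8482516 on, was 314 bp apart. Joining at 1000 bp placed the 261 regions in 246 stretches, of which 166 were a single peak and 13 held more than 1 broad region, and 4 were 10 kb or longer.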

How the data were processed

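NFYA-1::GFP ChIP was measured in 2 samples. The authors deposited a peak list for each and a combined one, called with PeakSeq on WormBase WS180, per the file headers. Each peak has a q value (a p-value adjusted by the authors) and 1-based start and end positions, with no other deposited value. Aligner, PeakSeq version, filters, control and the way of combining were not given in the sources used here. Input samples had no list here.

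Width was end minus start plus 1. Overlap meant at least 1 bp. Gaps were counted between peak edges, and chromosome length was the largest peak coordinate in any list. Depth is unknown, so precision rests on numbers of regions alone. Ratios of shares carry 95% intervals on the log scale. Functions were checked on simulated lists with known widths, divisions and gaps. Python 3.11.15, numpy 2.4.6, pandas 2.3.3 and scipy 1.17.1 were used, with matplotlib 3.10.9 for figures. Alternatives were other width thresholds, overlap rules, distance rules and single replicate lists.

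Regions are named by a fixed rule: the 10 widest, the 10 with the smallest q values, up to 10 without a peak in a replicate, the 5 most divided, the 5 with the lowest Jaccard index, the 3 closest broad pairs, the 3 next to the threshold and the widest on each chromosome. Regions outside it (the closest outlines, the most isolated region, combined q values weaker than a replicate's, the strongest and the widest in neither replicate, and other members of joined stretches) were chosen after their values were seen. The width threshold, the members and the measures were chosen with earlier results of these data known. No significance test was run.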

Additional observations from a re-analysis of the deposited data

How the results depend on the processing

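The 10 summary values were recomputed under 63 alternatives, of which 29 stayed within the interval of the reported value, 32 fell outside it and 2 fell below 1 for a ratio above 1. These were the ratio of broad to narrower shares with a neighbour within 2 kb, which reversed to 0.601 between midpoints (0.432 to 0.836) and was 0.995 against peaks of 1000 to 1499 bp, with an interval that includes 1 (0.841 to 1.18), a comparison added after seeing the data. Between midpoints part of the width of a broad region counts as distance, and the cause was not tested in either case. That ratio was 1.34 with a limit of 5 kb and 2.26 with 1 kb, and 1.67 to 2.33 in the single replicate lists. The share behind it was 68.2% within 5 kb, 36.4% within 1 kb, 12.3% between midpoints, 35.2% in the stronger 50% of the list and 30 to 50.6% in the single lists.

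A threshold of 1000 bp or of 2000 bp gave broad shares of 12.1% and 3.67%, median strengths of 20.8 and 32.5, and divided shares of 8.58% and 21.2%. At 2000 bp, 81.4% were in both replicates and 6.41% in neither. With a reciprocal overlap of 50%, 46.0% were in both, 0% divided and 22.6% in neither, as its construction requires for divided regions. With the stronger 50% of each replicate list these were 51.0%, 6.90% and 28.4%. The middle of 3 equal parts of each autosome held 43.5% of autosomal broad regions.

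With 1 replicate used alone, the broad share was 5.03 to 5.40%, the ratio of X to autosomes 1.57 to 2.20, the autosomal share in the centre 62.8 to 65.4% and the median strength 12.2 to 17.1. Of the regions, 77.01 to 86.6% held a peak, 9.20 to 9.58% were divided and 13.4 to 23.0% were empty. No paired analysis was possible because no result comes from a test and lists were used for the ChIP group alone. Depth is unknown, so neither the shorter list nor the smaller outlines of replicate 2 can be set against its reads.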
